A study of Drosophila melanogaster with 23 samples.

Results

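The genes described here are the nuclear genes of Drosophila melanogaster for oxidative phosphorylation, the mitochondrial respiratory chain and ATP synthase. They were chosen by name: every gene in the tables whose FlyBase symbol starts with ND-, COX and a digit, UQCR, ATPsyn or Sdh. The rule found 88 genes of the 17559 listed, of which 64 held at least 10 normalized counts in at least 4 of 20 libraries and were tested among 9588 such genes. The libraries were made from adult heads, taken 5 to 7 days past pupation. The wild type was w1118, and the mutants each carried 1 disrupted copy of a fly ortholog of an autism-associated gene, named as the study does by the human gene. ASH1L/+ carried an insertion in ash1, WDFY3/+ the bchs58 allele, CHD2/+ an allele of Chd1, and CHD8/+ the kis1 allele of kismet, each beside a normal copy. The double heterozygote CHD8/+; PP2R5D/+ also carried the wrd104 allele of wrd, a regulatory subunit gene of protein phosphatase PP2A. Wild type and each single heterozygote had 4 libraries and the double heterozygote 3, made with a kit that reads the 3′ ends of mRNAs. A whole head mixes brain, eye, muscle, fat body and cuticle, so fewer cells of a type and less RNA per cell cannot be told apart. Each disrupted gene was represented by 1 allele, and the sex of the flies was not given in the sources used here.

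Oxidative phosphorylation moves electrons from NADH and succinate through complexes I to IV to oxygen, and complex V uses the proton gradient built on the way to make ATP. Most subunits are encoded in the nucleus and imported, while a small core is encoded by mitochondrial DNA, so the complexes need both genomes. Neurons, photoreceptors and muscle, all present in a fly head, spend much ATP.

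The study numbered its libraries 1 to 4 within each genotype, and the sample-sheet numbers in the library names run by that number (74 to 78 for replicate 1, 79 to 83 for replicate 2, 84 to 88 for replicate 3 and 89 to 94 for replicate 4). The labels call the replicates biological but do not say what a number shares across genotypes, and the batch term of the study's own model is not given per library. The depth, estimated from what 1 read appeared to be worth in each table, was about 2800000 to 9800000 reads per library. The paper states a median of mapped reads per sample that lies above this range. Since whole reads could not be recovered from the deposited values, the estimate is rough and may be too low. The targeted gene was lower than in its same-numbered wild type counterpart in 4 of 4 ASH1L/+ libraries (ash1, 0.659 of wild type) and 4 of 4 CHD2/+ libraries (Chd1, 0.496 of wild type), but in only 1 of 4 WDFY3/+ libraries (bchs) and 1 of 4 CHD8/+ libraries (kis). Since 3′ ends were counted, this checks only alleles that lower the transcript itself. The photoreceptor markers were high in all libraries (ninaE, the main rhodopsin, at 14960 or more normalized counts), and the neuron markers were present in all of them (from 37.4 or more for Gad1 to 1015 or more for Syt1). The libraries that stood apart within their genotype were ASH1L/+ replicate 3, CHD2/+ replicate 2 and CHD8/+ replicate 1. ASH1L/+ replicate 3 and CHD2/+ replicate 2 had the highest shares of mitochondrially encoded genes. The OXPHOS share of CHD8/+ replicate 1 (1.69%) lay far below the other CHD8/+ libraries. It was near that of the wild type and WDFY3/+ replicate 1 libraries (1.65% each). The main counts over all 64 genes are also given without the libraries that stood apart, and the counts by complex and by list were not recomputed.

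Of the 88 genes, 40 belonged to complex I (NADH dehydrogenase, ND-), 8 to complex II (succinate dehydrogenase, Sdh), 9 to complex III (cytochrome bc1, UQCR), 16 to complex IV (cytochrome c oxidase, COX) and 15 to complex V (ATP synthase, ATPsyn). In the same order, 33, 5, 6, 9 and 11 were tested. Apart from ND-MNLL, 24 of the 88 had a symbol ending in L or L and a digit. These were taken as paralogs of the principal subunit genes. Only 1 of these, COX7AL2, passed the filter. The other 23 stayed near 0, and among them ATPsynepsilonL reached 15.9, COX6AL2 14.2 and SdhBL 12.2 normalized counts in the highest of the 20 libraries. In the double heterozygote ATPsynepsilonL reached 22.3. The 24th untested gene was ND-B8, a complex I subunit gene with a highest value of 3.49. ND-B8 overlaps Gs1l on the opposite strand. The span of another gene overlapped that of 35 of the 64 tested genes on either strand (8 on the same strand, ND-15 among them). Spans include introns, so this does not count genes that share transcript sequence. The strand setting of the counting was not given in the sources used here. Whether reads of overlapping genes were mixed was not tested. The tested genes lay on all major chromosome arms (12 on 2L, 11 on 2R, 13 on 3L, 14 on 3R, 2 on 4 and 12 on X). Their median canonical transcript was 804.5 nt long (417 to 3817 nt), against 2047.5 nt for the 9382 tested genes that had a length.

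The OXPHOS genes made up 1.24% to 5.01% of a library's total. The share differed between libraries of 1 genotype as much as between genotypes. In wild type the 4 shares were 1.65%, 2.28%, 3.05% and 2.79% in the order of replicate numbers 1 to 4. In ASH1L/+ they were 1.24%, 2.25%, 4.70% and 2.68%, and in WDFY3/+ 1.65%, 2.72%, 4.44% and 2.73%. In CHD2/+ they were 2.64%, 5.01%, 4.17% and 3.29%, and in CHD8/+ 1.69%, 4.02%, 4.0% and 4.07%. The replicate 1 library had the lowest share in each of the 5 genotypes, and the replicate 3 library held 1.58 to 3.80 times the share of the replicate 1 library of its genotype. Ribosomal RNA genes, mitochondrial ones included, took 13.7% to 24.9% of the total in 4 of the 5 replicate 1 libraries and 2.20% in that of CHD2/+, against 1.05% to 10.2% in the other 15 libraries. With these genes left out of the total, the replicate 1 library still had the lowest share in each genotype and the ratio ran from 1.6 to 3.02 (ASH1L/+ 3.02, wild type 1.62). The part of ribosomal RNA in the gene differences was not tested.

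**Figure D1:**
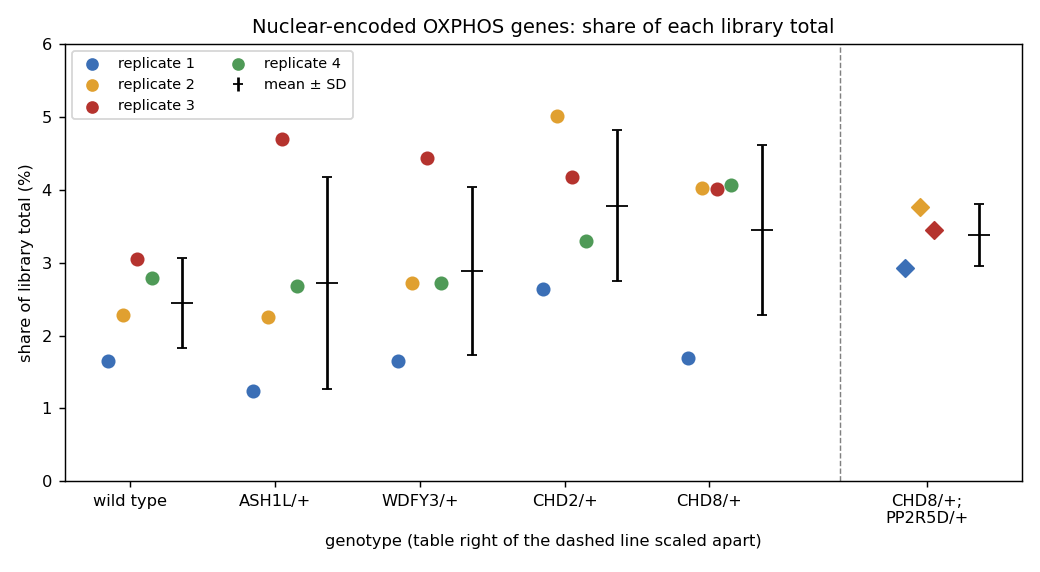
Share of each library's total (percent) taken by the OXPHOS genes, by genotype. Each point is a library coloured by its replicate number, with the mean and SD of the genotype beside the points. The replicate 1 libraries sit lowest in every genotype (1.24% to 2.64% in the 5 groups left of the dashed line), and the table right of that line was scaled apart.

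The OXPHOS genes differed by replicate number far more than by genotype. With genotype in the model, 60 of 64 genes (93.8%) differed between the replicate numbers (limma F-test, adjusted p below 0.05), against 51.5% of all genes tested. In the same model, 0 of 64 genes differed between the genotypes, against 1.20% of all genes. Of the 64, 18 had an unadjusted genotype p below 0.05 in the limma F-test. The count over all genes at that cut is not given here, so the 18 cannot be read as an excess. The smallest adjusted p was 0.0518 (ND-B17.2, a complex I accessory subunit). Replicate number took a median of 59.5% of the variation of an OXPHOS gene and genotype 15.3%, where the medians over all genes were 39.5% and 18.5%. The 4 genes that did not pass the replicate test were ATPsynC (adjusted p = 0.196), ND-49 (0.107), ND-MNLL (0.0736) and COX7AL2 (0.073). With ASH1L/+ replicate 3 and CHD2/+ replicate 2 left out, 60 genes again passed the replicate test and 0 the genotype test.

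Replicate 1 was low and replicate 3 high. Against the mean of the other 3 numbers, 57 of 64 OXPHOS genes fell in replicate 1 (at least 1.5-fold, adjusted p below 0.05; 16.4% of all genes fell and 23.5% rose) and 0 rose. Their median difference was -0.98 on the log2 scale, against 0.01 over all genes. In replicate 3, 39 of 64 rose (14.0% of all genes rose and 15.5% fell) and 0 fell, with a median of 0.70 against -0.04. When the libraries were scaled to equal totals, 21 of 64 rose in replicate 3. In replicate 4, 2 of 64 rose (2.59% of all genes rose and 7.13% fell) and 0 fell. In replicate 2, 0 of 64 rose and 0 fell, as for 0% of all genes in either direction in this limma contrast, while 9 of 64 and 1231 of 9588 had an unadjusted p below 0.05. Without ASH1L/+ replicate 3 and CHD2/+ replicate 2 the counts were 56 lower in replicate 1 and 43 higher in replicate 3. Without CHD8/+ replicate 1 they were 53 and 38, and 56 genes passed the replicate test. Library by library, 59 of 64 genes (92.2%) held more in replicate 3 than in replicate 1 in all 5 genotypes, which was so for 20.7% of all genes. Over the 4 genotypes other than ASH1L/+, or other than CHD8/+, it was again 59, against 22.9% and 24.3% of all genes. The replicate 1 library was the lowest of 4 for 57 genes of wild type, and for 60, 54, 48 and 62 genes of ASH1L/+, WDFY3/+, CHD2/+ and CHD8/+. This was so for 30.8%, 30.1%, 28.7%, 20.5% and 33.9% of all genes, in the same order. The replicate 3 library was the highest of 4 for 61 genes in WDFY3/+, against 29.5% of all genes. In CHD2/+, where replicate 2 was often higher, it was the highest for 16 (25%), near the 24.9% of all genes.

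**Figure D2:**
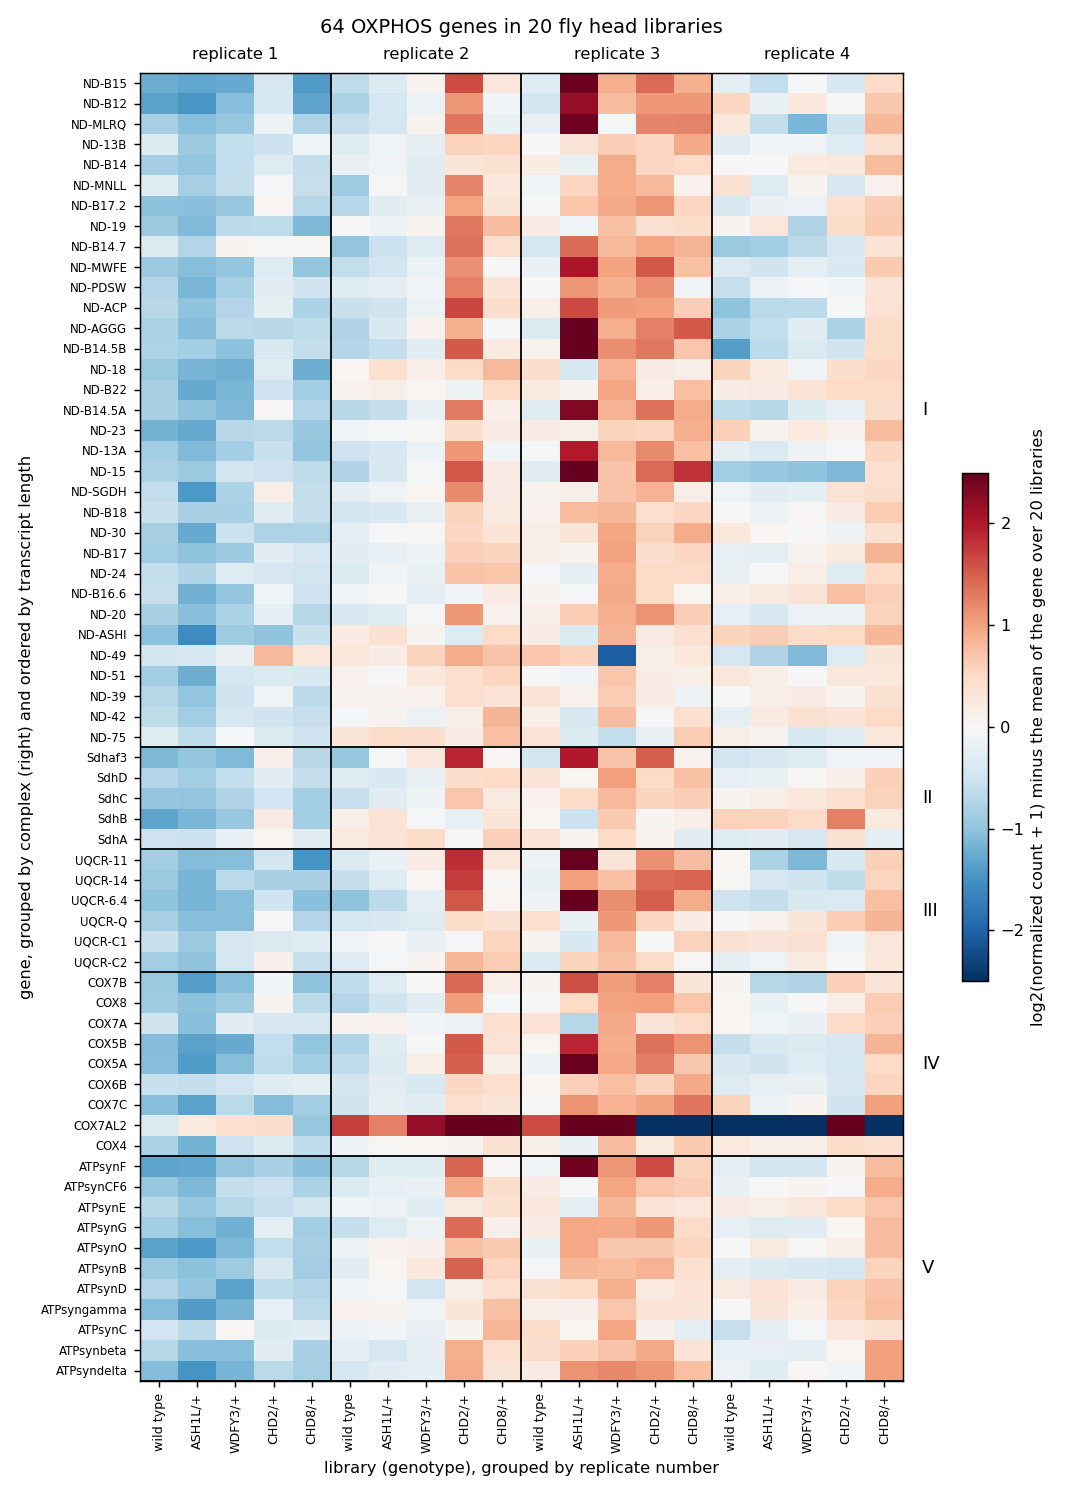
Level of each of the 64 tested OXPHOS genes (lines, grouped by complex and ordered by transcript length) in each of 20 libraries (columns, grouped by replicate number and then genotype), as log2(normalized count + 1) minus the mean of the gene over the 20 libraries. The replicate 1 block is blue in all complexes, and ASH1L/+ replicate 3 and CHD2/+ replicate 2 hold the reddest columns, the former in the genes with short transcripts.

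Complex I takes electrons from NADH. Its replicate 1 difference had a median of -0.93 over 33 genes, with 30 lower, and 19 of 33 were higher in replicate 3 (median 0.64). Of all genes tested, 16.4% were lower in replicate 1 and 14.0% higher in replicate 3, shares to be read beside the counts of each complex. All values by library are normalized counts in the order wild type, ASH1L/+, WDFY3/+, CHD2/+ and CHD8/+. ND-AGGG, an accessory subunit of the membrane arm (chr3L:24976254-24977118), held 8598, 7021, 9364, 9255 and 9649 in the replicate 1 libraries and 8886, 11436, 16125, 27734 and 14605 in the replicate 2 libraries. It held 11590.4, 94874, 28143, 35611 and 43111 in the replicate 3 libraries and 8598, 9709, 12454, 8604 and 20389 in the replicate 4 libraries. The single value of 94874 in ASH1L/+ replicate 3 was over all others, while no wild type library held more than 11590.4. The replicate 3 difference of ND-AGGG was 1.6 (SE 0.31, limma adjusted p = 0.0021). ND-15, another accessory subunit, had the largest replicate 3 difference, 1.68 (SE 0.33, limma adjusted p = 0.00229), and held 19584 in ASH1L/+ replicate 3 against 2606 in wild type replicate 3. ND-B15, also an accessory subunit of the membrane arm (chr2R:14756516-14757072), held 102.02, 97.1, 100.5, 181 and 90.5 in the replicate 1 libraries and 156, 191, 256, 753 and 293 in the replicate 2 libraries. It held 194, 1328, 457, 648 and 450.5 in the replicate 3 libraries and 204, 157, 240.3, 184 and 338 in the replicate 4 libraries. The replicate 1 libraries did not overlap those of replicate 3 for ND-B15, and its replicate 1 difference of -1.5 (SE 0.31, limma adjusted p = 0.00101) was the largest of the 64. ND-B12 followed it in replicate 1 with -1.49 (SE 0.29), and ND-B14.5B rose in replicate 3 by 1.58 (SE 0.32).

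The core subunits of complex I hold its redox centres. ND-75, the large iron-sulfur subunit (chrX:8248651-8251687), held 312, 247, 376, 304 and 273 in the replicate 1 libraries and 481, 529.8, 519, 435 and 644 in the replicate 2 libraries. It held 495, 301, 251, 342 and 598 in the replicate 3 libraries and 426, 400.5, 289, 307 and 467 in the replicate 4 libraries. The replicate numbers overlapped for ND-75, whose replicate 1 difference was -0.48 (SE 0.17), short of the 1.5-fold threshold, and whose replicate 3 difference was -0.03 (SE 0.17). ND-51, which binds NADH and FMN, fell by 0.86 in replicate 1 (SE 0.14) and stood at 0.25 (SE 0.14) in replicate 3. ND-30, ND-20 and ND-23, core subunits of the peripheral arm, passed both tests, with replicate 1 differences of -1.11, -0.96 and -1.26 and replicate 3 differences of 0.78, 0.91 and 0.63. ND-42, an accessory subunit (1618 nt transcript), fell in replicate 1 by 0.80 and stood at 0.23 (SE 0.16) in replicate 3. ND-ACP, the mitochondrial acyl carrier protein, passed both tests (-0.92 and 1.21), as did ND-PDSW of the membrane arm (-0.93 and 0.81). ND-49, a core subunit beside the quinone site, did not follow this course: it held 230.4, 242, 280.4, 559 and 386 in the replicate 1 libraries and 385, 362, 468, 602 and 521 in the replicate 2 libraries. It held 510.4, 468, 75.5, 349 and 381 in the replicate 3 libraries and 237, 188, 147, 253 and 393 in the replicate 4 libraries. Its WDFY3/+ replicate 3 and 4 libraries were the lowest of all 20, and it was higher in replicate 3 than in replicate 1 in 2 of 5 genotypes.

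Complex II is the succinate dehydrogenase of both the TCA cycle and the chain, and has no mitochondrially encoded subunit. Of its 5 tested genes, 4 fell in replicate 1 and 3 rose in replicate 3. SdhB, the iron-sulfur subunit (chr2R:6807626-6809172), held 132, 149.7, 171, 385 and 183 in the replicate 1 libraries and 368, 421, 327, 287 and 408 in the replicate 2 libraries. It held 344, 229, 527, 350.3 and 361 in the replicate 3 libraries and 499, 496, 465, 793 and 395 in the replicate 4 libraries. CHD2/+ replicate 1 lay far above the other 4 libraries of its number. SdhB and ND-ASHI were the 2 genes called in replicate 4, with differences of 0.84 (SE 0.21, limma adjusted p = 0.0202) and 0.79 (SE 0.17, limma adjusted p = 0.00783). Both calls were lost without ASH1L/+ replicate 4 (adjusted p = 0.087 and 0.053), and that of SdhB also without wild type replicate 4 (0.0753) or CHD2/+ replicate 4 (0.0849). SdhC and SdhD, the membrane anchors, passed both tests, with -1.07 and -0.82 in replicate 1 and 0.68 and 0.70 in replicate 3. SdhA, the flavoprotein, had -0.40 (SE 0.17) in replicate 1 and 0.20 (SE 0.17) in replicate 3, neither called.

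Complex III passes electrons from ubiquinol to cytochrome c. All 6 of its tested genes fell in replicate 1 and 3 rose in replicate 3. UQCR-C1, a large core subunit of the matrix side (chr3R:14890231-14892387), held 445, 346, 498, 510.4 and 534 in the replicate 1 libraries and 609, 649.7, 583, 641 and 954 in the replicate 2 libraries. It held 694, 502, 1146, 659 and 977 in the replicate 3 libraries and 857, 825, 850.2, 613 and 800.4 in the replicate 4 libraries. The replicate 1 values of UQCR-C1 did not pass 534, and the ASH1L/+ replicate 3 library (502) lay among them. Its replicate 1 difference was -0.68 (SE 0.16, limma adjusted p = 0.00248) and its replicate 3 difference 0.29 (SE 0.16). UQCR-C2, the other large core subunit, had -0.74 (SE 0.17) and 0.38 (SE 0.17). Among the small subunits, UQCR-6.4 had -1.27 (SE 0.33) and 1.65 (SE 0.33), UQCR-14 -1.17 (SE 0.27) and 1.19 (SE 0.27), and UQCR-Q -0.97 (SE 0.19) and 0.55 (SE 0.19) in replicates 1 and 3. UQCR-Q did not reach 1.5-fold in replicate 3.

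Complex IV reduces oxygen. Of 9 tested genes, 7 fell in replicate 1 and 6 rose in replicate 3. COX5B, a zinc-binding subunit on the matrix side (chr2L:6557800-6559308), held 2768, 2346, 2468, 3848 and 2983 in the replicate 1 libraries and 3472, 4808, 5919.6, 16994 and 7532 in the replicate 2 libraries. It held 6074, 22098, 11208, 15224 and 12824 in the replicate 3 libraries and 3918, 4467, 4644, 4393 and 10580.4 in the replicate 4 libraries. The highest replicate 1 value of COX5B (3848) lay below the lowest replicate 3 value (6074). Its differences were -1.41 (SE 0.26, limma adjusted p = 0.000485) in replicate 1 and 1.43 (SE 0.26, limma adjusted p = 0.00192) in replicate 3. COX5A had -1.33 (SE 0.30) and 1.41 (SE 0.30), and COX8 -0.91 (SE 0.18) and 0.86 (SE 0.18). COX6B, on the side of the intermembrane space, did not reach 1.5-fold in replicate 1 (-0.57 (SE 0.16)) and rose in replicate 3 (0.77 (SE 0.16)). COX4 and COX7A fell in replicate 1 (-0.92 and -0.70) and were not called in replicate 3 (0.45 and 0.37). The paralog COX7AL2 did not follow the replicate numbers: it held 92.1, 139, 158, 160.4 and 60.9 in the replicate 1 libraries and 396, 282, 545, 2195 and 825 in the replicate 2 libraries. It held 369, 5263, 1869.7, 5.47 and 2.49 in the replicate 3 libraries and 1.72, 6.88, 5.55, 740.1 and 15.3 in the replicate 4 libraries. Its values spanned 1.72 to 5263, with libraries near 0 in replicates 3 and 4 beside others at up to 5263.

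**Figure D3:**
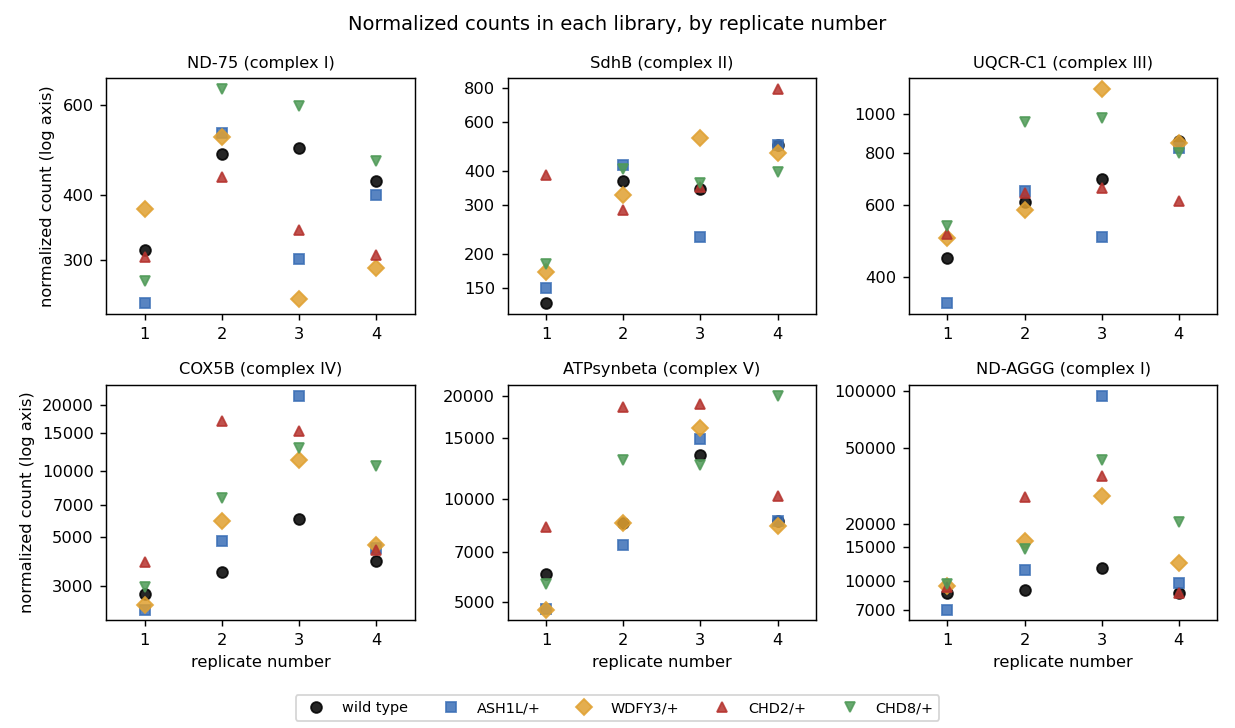
Normalized counts (log axis) of 6 OXPHOS genes in each library against replicate number, with 1 point per genotype and number. COX5B and ATPsynbeta are lowest in replicate 1, ND-75 overlaps between numbers, and ND-AGGG holds its highest value, 94874, in ASH1L/+ replicate 3.

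Complex V makes ATP. Of 11 tested genes, 10 fell in replicate 1 and 8 rose in replicate 3. ATPsynbeta, the catalytic subunit (chr4:1031484-1034917), held 6046, 4752, 4742, 8244 and 5652 in the replicate 1 libraries and 8472, 7334, 8476, 18562 and 12984 in the replicate 2 libraries. It held 13414, 14949.9, 16084, 18922 and 12505 in the replicate 3 libraries and 8584, 8605, 8307, 10188 and 19999 in the replicate 4 libraries. The replicate 1 and replicate 3 values of ATPsynbeta did not overlap, and the differences were -1.03 (SE 0.20, limma adjusted p = 0.000612) and 0.81 (SE 0.20, limma adjusted p = 0.00674). ATPsynO, a part of the peripheral stalk (chr3R:15265591-15266690), held 276, 259, 319, 459 and 391 in the replicate 1 libraries and 629, 758, 769, 1156 and 1096 in the replicate 2 libraries. It held 628, 1372, 1123, 1119 and 1010.4 in the replicate 3 libraries and 699, 816, 711, 784 and 1199 in the replicate 4 libraries. Each replicate 1 value of ATPsynO was the lowest of its genotype, and the difference was -1.43 (SE 0.16, limma adjusted p = 9.2e-06). ATPsynF, a membrane subunit, had -1.46 (SE 0.29) in replicate 1 and 1.5 (SE 0.29) in replicate 3. ATPsynD of the peripheral stalk had -1.17 (SE 0.16) and 0.62 (SE 0.16), ATPsynCF6 -1.06 (SE 0.18) and 0.66 (SE 0.18), and ATPsyngamma of the rotor -1.2 (SE 0.16) and 0.43 (SE 0.16). ATPsyngamma was not called in replicate 3. ATPsynC, the ring subunit that carries protons, held 9011, 11337, 17093 and 8426 in wild type replicates 1 to 4 and passed neither test (-0.46 (SE 0.21) and 0.38 (SE 0.21)).

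Compared with wild type, none of the 64 OXPHOS genes was called in any single heterozygote, at an adjusted p below 0.05 and at least 1.5-fold. This was so for 0 of 64 in ASH1L/+ (0.0939% of all genes were called), WDFY3/+ (0.0521%), CHD2/+ (0.188%) and CHD8/+ (0.271%). With the replicate number as a block the count stayed 0 in ASH1L/+, WDFY3/+ and CHD8/+, where 20, 24 and 71 of all genes were called against 9, 5 and 26 without it. The CHD2/+ numbers did not pass the pairing check, and the block changes calls there, which are given with the other alternatives in the closing section. At an unadjusted p below 0.05 the counts were 0, 0, 7 and 2 of 64, where all genes gave 250, 313, 664 and 359 of 9588. The median SE of a log2 difference of an OXPHOS gene was 0.45 without the block and 0.26 with it.

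More of the 64 differences were above 0 than below in each of the 4 mutants, least so in ASH1L/+. The median log2 difference of the 64 genes was 0.08 for ASH1L/+ with 37 genes above 0, 0.29 for WDFY3/+ with 57, 0.63 for CHD2/+ with 61 and 0.48 for CHD8/+ with 63. Over all genes tested the medians were 0.03, 0.01, -0.02 and -0.01. Since the 4 comparisons share the wild type libraries, these medians are not independent of one another. The within-genotype SD of a library's mean log2 level of the 64 genes was 0.61, about the size of the largest median. This SD is of single libraries, differences between replicate numbers included, and is not the error of a difference between means of 4 libraries. Within a replicate number, the median difference from the wild type library of that number was 0.46, 1.20, 0.53 and 0.19 in CHD2/+ for numbers 1 to 4, and 0.14, 0.74, 0.46 and 0.70 in CHD8/+. For CHD2/+, whose numbers did not pass the pairing check, this matches libraries by label only. In WDFY3/+ the median difference was 0.06, 0.28, 0.77 and 0.07, and in ASH1L/+ -0.23, 0.15, 0.49 and -0.03. Leaving out wild type replicate 1 moved the medians of ASH1L/+, WDFY3/+ and CHD2/+ to -0.07, 0.12 and 0.41. Leaving out ASH1L/+ replicate 3 gave ASH1L/+ a median of -0.17, leaving out WDFY3/+ replicate 3 gave WDFY3/+ one of -0.00123, and leaving out CHD2/+ replicate 2 gave CHD2/+ one of 0.42. The CHD8/+ median was 0.32 to 0.80 with 1 library left out at a time, at its lowest without wild type replicate 1 and at its highest without CHD8/+ replicate 1.

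**Figure D4:**
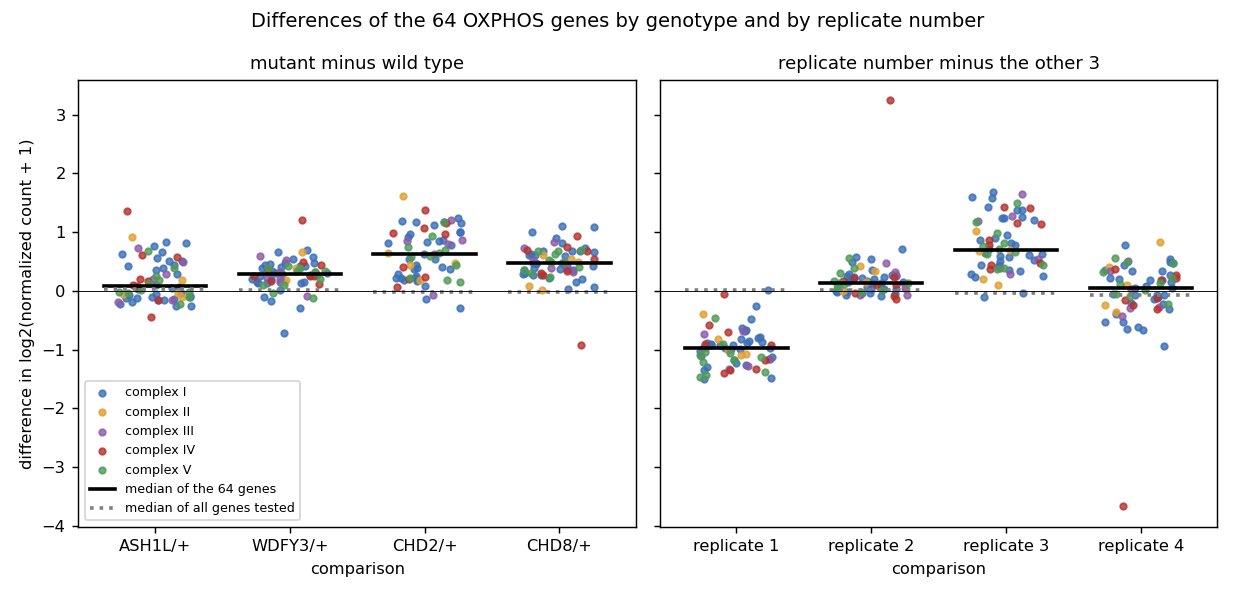
Difference in log2(normalized count + 1) of each of the 64 OXPHOS genes, coloured by complex, for each mutant against wild type (left) and each replicate number against the other 3 (right), with the median of the 64 genes and of all genes tested. The CHD2/+ and CHD8/+ points lie mostly above 0 (medians 0.63 and 0.48), and the replicate 1 points lie around -0.98.

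In CHD2/+, 6 of 64 genes (9.38%) had all 4 libraries above every wild type library, against 3.39% of all genes. They were ND-B17.2, ND-B14.5A and ND-SGDH of complex I, the complex II assembly factor Sdhaf3, UQCR-C2 and COX8. ND-B17.2 (chr2L:2579201-2580172) held 1061, 2039, 2226 and 1357 in CHD2/+ replicates 1 to 4 and 504, 627, 995 and 795 in wild type, a log2 difference of 1.175 (SE 0.42, limma adjusted p = 0.565). The lowest CHD2/+ library lay only a little above the highest wild type library. Sdhaf3 (chr3R:16481861-16482452) held 50.1, 174, 129 and 42.5 against 20.3, 22.98, 32.3 and 32.4, a difference of 1.62 (SE 0.55, limma adjusted p = 0.516) and the largest of the 64 in CHD2/+. The adjusted p of both is from the fit without the replicate block, and both are among the calls that the block changes. Its counts were low throughout. UQCR-C2 held 1594, 2585, 2037 and 1465 against 799.8, 1175, 1147 and 1229 (0.80 (SE 0.34)), and COX8 3113, 6161, 6052 and 3316 against 1609, 1797, 2992 and 3056 (0.97 (SE 0.43)). ND-SGDH and ND-B14.5A had differences of 0.86 (SE 0.37) and 1.24 (SE 0.60). By complex, the CHD2/+ medians were 0.55 for complex I, 0.47 for II, 0.82 for III, 0.97 for IV and 0.59 for V. The 3 genes below 0 were ND-75, UQCR-C1 and ND-ASHI: ND-75 had -0.30 (SE 0.31), UQCR-C1 -0.07 (SE 0.32) and ND-ASHI -0.13 (SE 0.49). Number for number, 34 of 64 genes (53.1%) were higher than wild type in 4 of 4 CHD2/+ libraries, against 13.6% of all genes. The CHD2/+ numbers did not pass the pairing check, so this count only matches libraries by label. Without CHD2/+ replicate 2 these counts were 6 (4.51% of all genes) and 35 (19.4% of all genes).

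In CHD8/+, 1 of 64 genes had all 4 libraries above every wild type library, against 1.91% of all genes. It was ND-B14.7, an accessory subunit of complex I (chr2R:21025078-21026086), which held 552, 709, 963 and 679.9 in CHD8/+ and 421, 269, 397 and 280.4 in wild type, a difference of 1.08 (SE 0.46, limma adjusted p = 0.998). ND-B14.7 was also among the 3 genes with the smallest p in WDFY3/+ (0.66 (SE 0.46)) and CHD2/+ (1.16 (SE 0.46)). COX6B held 5054, 7959, 11442 and 8592 against 4015, 4305, 6137 and 4727 (0.74 (SE 0.35)), and ND-13B had 0.68 (SE 0.33). The replicate 1 library of CHD8/+ lay within the wild type range for both. By complex the CHD8/+ medians lay between 0.46 and 0.54. Number for number, 37 of 64 genes (57.8%) were higher than wild type in 4 of 4 CHD8/+ libraries, against 10.4% of all genes. Without CHD8/+ replicate 1, a choice made after seeing the data, 39 of 64 genes (60.9%) had the other 3 libraries above every wild type library, against 6.82% of all genes, and 49 (76.6%) were higher number for number, against 18.1%. Leaving out a library can only keep or raise such counts. Replicate 1 had the lowest OXPHOS share in every genotype, so the rise of these counts follows in part from the choice itself.

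In WDFY3/+ and ASH1L/+ no OXPHOS gene had all 4 libraries above, or all 4 below, every wild type library. Of all genes, 1.27% lay above and 0.949% below in this way in WDFY3/+, and 0.793% and 0.803% in ASH1L/+. With shares this small, the lack of such an OXPHOS gene does not set these mutants apart from CHD8/+. The genes with the smallest p in WDFY3/+ besides ND-B14.7 were UQCR-C2 (0.59 (SE 0.34, limma adjusted p = 1)) and ND-49 (-0.72 (SE 0.45, limma adjusted p = 1)), the latter with low values in replicates 3 and 4. In ASH1L/+ they were Sdhaf3 (0.91 (SE 0.55)), COX7A (-0.44 (SE 0.34)) and ND-B14.5B (0.83 (SE 0.67)). The ND-B14.5B value came from 1 library: ASH1L/+ held 1764, 2096, 19987 and 1989.6 and wild type 1874, 1909, 3359.8 and 1223, and without ASH1L/+ replicate 3 the difference was -0.00988. In that library complex I took 2.42% of the total, where the other ASH1L/+ libraries had 0.449% to 0.904%. Of the 402297 normalized counts of all OXPHOS genes there, ND-AGGG of complex I alone held 94874. Complex V took 0.75% of the same library, below the 0.867% of ASH1L/+ replicate 4. Mitochondrially encoded genes took 7.07% of ASH1L/+ replicate 3 and 5.67% of CHD2/+ replicate 2, against 0.954% to 3.85% in the other 18 libraries. The part of these libraries' make-up in the gene differences was not tested.

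Transcript length moved with the results. Between replicates 3 and 1, averaged over the 5 genotypes, the 32 OXPHOS genes with transcripts of up to 804.5 nt had a median log2 difference of 1.55 and the 32 longer ones 1.13. All genes split at the same length gave 1.0 for 944 short and -0.13 for 8438 long ones. In CHD2/+ against wild type the short OXPHOS genes had a median of 0.89 and the long ones 0.42, and all genes 0.51 and -0.06. In CHD8/+ the medians were 0.62 and 0.40 for the OXPHOS genes, and 0.33 and -0.04 for all genes. In ASH1L/+ replicate 3 against wild type replicate 3 they were 1.17 and -0.05, and for all genes 1.39 and 0. Within wild type, replicate 3 against 1 gave 0.89 for the short and 0.94 for the long OXPHOS genes, where all genes gave 0.49 and -0.08. In each of 5 length classes the OXPHOS median between replicates 3 and 1 lay above that of all genes: 1.36 against 0.98 from 500 to 700 nt (14 genes), 1.39 against 0.75 from 700 to 1000 nt (29 genes), and 0.78 against -0.36 over 1500 nt (11 genes). The targeted genes, whose transcripts are long, were in wild type highest in replicate 1 and lowest in replicate 3 (kis 2530 and 546, ash1 185 and 29.1). The part of length in the differences was not tested.

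**Figure D5:**
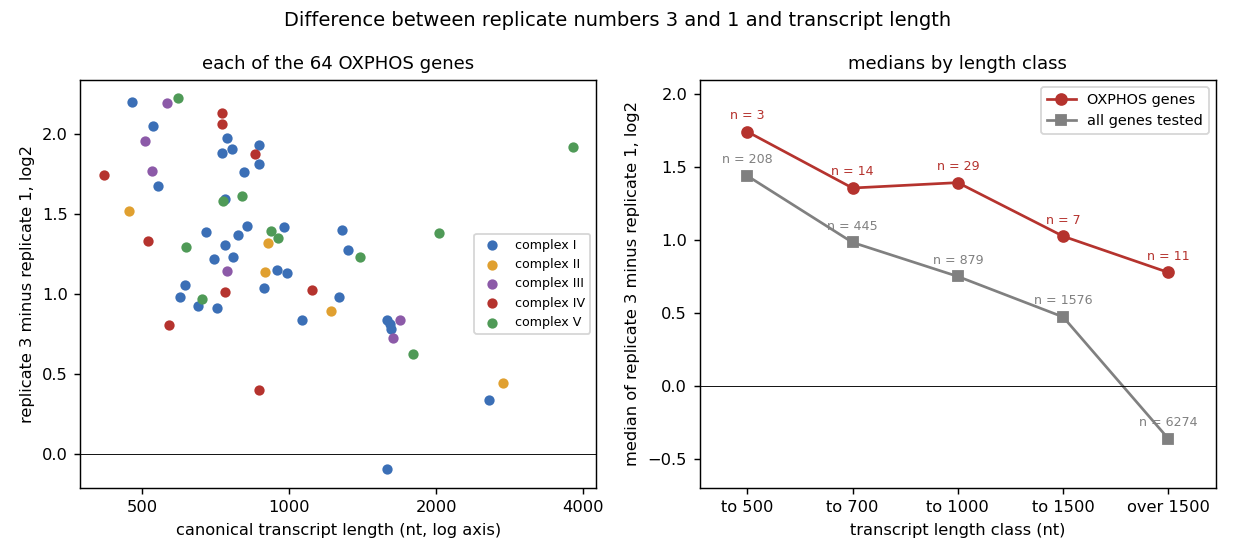
Log2 difference between replicates 3 and 1 (mean of 5 genotypes) against canonical transcript length for each of the 64 OXPHOS genes (left, log axis) and its median in 5 length classes for the OXPHOS genes and for all genes tested (right, with the number of genes in each class). Both medians fall with length, and the OXPHOS median is above that of all genes in each class (0.78 against -0.36 over 1500 nt).

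Other mitochondrial and ribosomal genes were read beside the OXPHOS genes. Of all genes tested, 16.4% fell and 23.5% rose in replicate 1, and 14.0% rose in replicate 3. The 7 OXPHOS subunits with other symbols (blw, ox, sun, cype, RFeSP, levy and Cyt-c1) followed the same course, with 6 of 7 lower in replicate 1 (median -1.0) and 4 of 7 higher in replicate 3 (median 0.83). Of 71 mitochondrial ribosomal protein genes, 32 fell and 1 rose in replicate 1 and 38 rose in replicate 3. Of 79 cytosolic ribosomal protein genes, 28 fell in replicate 1 and 34 rose in replicate 3. Of the 13 TCA cycle genes, which supply the NADH that complex I uses, 6 fell and 1 rose in replicate 1 and 1 rose in replicate 3. The 13 tested mitochondrially encoded genes gave 1 lower (7.69%) and 2 higher (15.4%) in replicate 1 and 1 higher (7.69%) in replicate 3, each under the share of all genes. Among 5 carriers (sesB and Ant2, which exchange ADP for ATP, the phosphate carriers Mpcp1 and Mpcp2, and porin), 3 fell in replicate 1 and 2 rose in replicate 3. Of the 5 regulator genes tested, 2 rose in replicate 1 and 0 fell. In the mutants none of these lists had a called gene without the replicate block, and their CHD2/+ and CHD8/+ medians were 0.39 and 0.42 for the other subunits, 0.45 and 0.30 for mitochondrial ribosomal proteins, 0.43 and 0.01 for cytosolic ribosomal proteins, and -0.03 and 0.15 for the TCA cycle.

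Markers of head cell types were read in the same contrasts, in which 23.5% of all genes rose and 16.4% fell in replicate 1, and 14.0% rose and 15.5% fell in replicate 3. Of 7 neuron markers, 4 rose and 0 fell in replicate 1 (median 0.97), and 5 fell and 1 rose in replicate 3 (median -0.83), opposite to the OXPHOS genes. The mean log2 level of the neuron markers was 9.91 to 10.79 in replicate 1 libraries and 9.04 to 9.73 in those of replicate 3. Of 8 muscle markers, 4 fell and 2 rose in replicate 1 and 1 rose in replicate 3. The mean log2 level of the muscle markers was 11.7 to 12 in CHD8/+ replicates 2 to 4 and 11.6 in CHD2/+ replicate 2, against 10.3 to 11.2 in the other 16 libraries. The 6 tested cuticle markers had a median of 2.02 in CHD8/+ and 0.86 in CHD2/+, with a mean level of 7.37 to 8.2 in CHD8/+ replicates 2 to 4 and 7.85 in CHD2/+ replicate 2 against 5.34 to 6.38 elsewhere. None of these markers was called in a mutant without the replicate block. With the block, 4 of 6 cuticle markers and 1 of 4 haemocyte markers rose in CHD8/+, where 0.615% of all genes rose. In WDFY3/+, where 0.229% of all genes rose with the block, 1 cuticle marker rose. CHD8/+ and WDFY3/+ were the mutants with paired numbers in which a marker was called. Photoreceptor markers had 1 of 6 lower in replicate 1 and 1 of 6 higher in replicate 3 (16.7% each), near the shares of all genes. Of 7 fat body markers 2 fell and 1 rose in replicate 1 and 3 rose in replicate 3, of 6 glia markers 2 fell and 2 rose in replicate 1 and 1 each way in replicate 3, and of 4 haemocyte markers 1 rose in replicate 1 and 2 fell in replicate 3. The flight muscle actin Act88F, a thorax marker, did not pass 21.3 in any library, and of 6 testis markers 3 (Mst84Da, Mst84Db and ocn) were at 0 throughout, while dj reached 25.1, Mst87F 4.18 and loopin-1 3.26. The marker dj, the only tested one, fell in replicate 4. The part of these cell types in the OXPHOS differences was not tested.

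In the double heterozygote, whose table was scaled apart from the others, the OXPHOS genes took 2.93%, 3.77% and 3.45% of the library total in its 3 libraries. All 3 lay above CHD8/+ replicate 1 (1.69%) and below the other 3 CHD8/+ libraries. All 64 tested genes were listed, and their shares, taken over the genes common to both tables, were above all 4 CHD8/+ libraries in 26 (40.6%), where 21.7% of all common genes were, and below all 4 in 6 (9.38%), where 12.5% were. The ratio of the mean shares, double over CHD8/+, ran from 0.269 to 4.08 with a median of 1.54, against a median of 1.15 over all genes. The gene with the highest ratio was UQCR-C1, with 0.0597, 0.0832 and 0.0947% in the double heterozygote and 0.0142, 0.0264, 0.0199 and 0.0171% in CHD8/+ replicates 1 to 4. ND-B15 and ND-B12 had ratios of 4.07 and 4.07, and ND-75 of 3.26. ND-15 had the lowest, with 0.0381, 0.0344 and 0.0209% against 0.0532, 0.0997, 0.223 and 0.0876%, followed by ND-AGGG (0.293), ATPsynbeta (0.355) and COX5B (0.361). Since the tables list different genes and were scaled apart, the genotype and the table cannot be told apart, and no test was made.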

How the data were processed

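Lexogen 3′ mRNA-Seq libraries of fly heads were read as 50 bp single ends. The authors quantified reads with Salmon 0.12.0 on BDGP6 and deposited counts divided by DESeq2 size factors, a normalized signal that is not whole counts. The tables of wild type and the single heterozygotes share a scale, and that of the double heterozygote does not.

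From these values, 0 sample columns were left unused. Genes reaching 10 in 4 or more of 20 libraries were fitted as log2(normalized count + 1), so that low genes' changes are understated, with the trend option of limma (R; versions 3.58.1 and 4.3.3) and Benjamini-Hochberg adjustment over 9588 genes. Genotype contrasts had no replicate term; replicate numbers and F-tests came from genotype plus replicate number. A fold change of at least 1.5 and an adjusted p below 0.05 made a call. The fit was tested on simulated data. As whole reads could not be recovered (8.49% to 70.9% of values whole within 0.02), no count model was used.

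Deviations of same-numbered libraries from their genotype means correlated with wild type at 0.211 to 0.782 in ASH1L/+, WDFY3/+ and CHD8/+, which were counted as paired by the data, and at 0.0732 to 0.46 in CHD2/+, which was not. The named genes were a set panel plus, per mutant, every called gene or otherwise the 3 with the smallest p, per replicate number the 5 with the largest called change, and the untested genes and paralogs. The members and lists were chosen with earlier results of these data known. Positions and lengths are from the Ensembl annotation of BDGP6. Alternatives covered normalization, the constant added before the log, filters, the variance model, the replicate block and libraries left out.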

Additional observations from a re-analysis of the deposited data

Results flagged for a closer look

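In groups of 4 libraries, 90 sets of values, from OXPHOS shares and 12 chosen genes, were searched for a library far from the other 3. Of these sets, 12 held one. For independent sets chosen beforehand, chance alone would give about 1 in 20. That rate does not apply here, since several of the genes had been named for large differences in these data and the shares overlap. For the share of the library total, CHD8/+ replicate 1 was far below the other CHD8/+ libraries, with 1.69% for all OXPHOS genes and 0.291% for complex IV.

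The other sets were values of single genes, in normalized counts. ASH1L/+ replicate 3 held 94874 of ND-AGGG, 19584 of ND-15, 22098 of COX5B, 5263 of COX7AL2, 1413 of ND-B14.7 and 184 of Sdhaf3, each far above the other ASH1L/+ libraries. Wild type replicate 3 held 11590.4 of ND-AGGG and 2606 of ND-15, above the other wild type libraries. CHD8/+ replicate 2 held 825 of COX7AL2, above the other CHD8/+ libraries, and wild type replicate 1 held 276 of ATPsynO, below the other wild type libraries. The cause of these values was not tested.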

How the results depend on the processing

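Alternatives to the limma fit kept most results: of 600 values with 1 library left out, 582 kept their direction and side of the threshold, and of 538 under other settings 518 did. The count of OXPHOS genes lower in replicate 1 stayed between 52 and 58 with 1 library left out, and that higher in replicate 3 between 34 and 41. Fits without one number in every genotype, without a whole genotype or without libraries that stood apart, and shares without ribosomal RNA, were chosen after seeing the data.

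With the replicate number as a block, 2 genes were called in CHD2/+, ND-B17.2 (1.175, adjusted p = 0.0119) and Sdhaf3 (1.62, adjusted p = 0.0458), where 116 of 9588 genes were called against 18 without the block. The numbers did not pair CHD2/+ with wild type by the check on their correlations, and the block changed no other call among the 64 genes. Among the lists, RFeSP of complex III (0.98) and the cuticle marker Cpr72Ec (1.37) were also called higher and the neuron marker Gad1 lower (-1.4) in CHD2/+ with the block. Without a filter on low values, 6 genes were higher in replicate 1 and 1 lower in replicate 3. With equal library totals, 21 were higher in replicate 3 and 12 in replicate 4. With quantile normalization, 1 was lower in replicate 4 and 1 differed by genotype. With 1 library left out, the count higher in replicate 4 ran from 0 (without ASH1L/+ replicate 4) to 4 (without WDFY3/+ replicate 3), that lower in replicate 4 from 0 to 2 (without CHD8/+ replicate 4), and that differing by genotype from 0 to 2 (without CHD8/+ replicate 4). Without all wild type, ASH1L/+ or WDFY3/+ libraries, 0, 1 and 1 were higher in replicate 4. Without all CHD2/+ or CHD8/+ libraries, 1 and 2 were lower in replicate 4, and without all CHD8/+ libraries 2 differed by genotype. The ASH1L/+ difference of ND-B14.5B ran from -0.00988 (without ASH1L/+ replicate 3) to 1.16 (without ASH1L/+ replicate 1) with 1 library left out, and was -0.00988 without both ASH1L/+ replicate 3 and CHD2/+ replicate 2. The causes were not tested.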
